A study of Mus musculus with 6 samples.

Results

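The genes described here build triglyceride, wrap it in lipid droplets, release fatty acids from it and bring fatty acids into the cell. They were 38 gene symbols taken from a written list of known functions, and all 38 were found among the 23284 genes of the count files. Of them 8 act in esterification, 7 in lipolysis and its regulation, 13 in the droplet coat and droplet formation, and 10 in the uptake and binding of fatty acids. RNA came from liver of 8-week-old C57BL6/J mice, with 3 libraries from Trim24 -/- liver (KO1 to KO3) and 3 from wild type liver (WT1 to WT3). No treatment is named for either genotype, and the origin of the Trim24 allele is not stated in the labels. The series is titled for hepatic lipid build-up and liver tumours, and the comparison asks whether the mRNAs of the storage machinery differ between the genotypes.

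Hepatocytes make triglyceride by adding fatty acids to a glycerol backbone at the endoplasmic reticulum. The product is either stored in droplets coated by perilipins and related proteins or loaded onto very low density lipoprotein. Stored triglyceride is cut back to fatty acids by lipases that act on the droplet surface, and incoming fatty acids are carried by membrane transporters and small cytosolic binding proteins.

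Reads assigned to genes came to 1607276, 1754269 and 2872421 in knockout and to 1495583, 1597540 and 1732309 in wild type, which were 4.22% to 6.69% of the counted reads. Where 3 values are given for a genotype, they run from library 1 to library 3. Levels are given as CPM, counts per 1e6 reads in tested genes after TMM scaling, so 3 counts, which is as much as a reading of 0 leaves possible, stood for 1.04 to 2.10 CPM depending on the library. These limits and the precision they give cover counting error only. Trim24 had 1.86, 1.09 and 0.696 CPM in knockout, against 21.7, 29.8 and 26.1 CPM in wild type, so the gene named in the genotype was low in every knockout library. The hepatocyte markers Alb, Apoa1, Apoa2, Ttr, Trf, Serpina1a, Fgb and Cps1 summed to 85272 to 121206 CPM in the knockout libraries and 120063 to 135742 CPM in the wild type libraries, so the tissue label holds. The 14 pancreatic acinar markers summed to 918, 13.0 and 607 CPM in knockout, against 11.9 to 37.7 CPM in wild type. The 8 stellate cell markers summed to 702 to 789 CPM in knockout and 528 to 575 CPM in wild type. Of 6 tested stellate cell markers, 2 were called higher by edgeR, against 3.08% of all tested genes. In bulk liver RNA, fewer cells of a type and less RNA per cell cannot be told apart. Nothing in the labels ties each library to its own mouse, and p-values therefore reflect library-to-library spread, part of which may be technical.

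Of the 38 genes, 30 had enough reads to be tested, and 4 of these fell in the knockout while none rose (edgeR quasi-likelihood test, Benjamini-Hochberg adjusted p under 0.05 over 9180 genes). The 4 were the phosphatidate phosphatase genes Lpin1 and Lpin2, the droplet coat gene Plin5 and the droplet formation gene Fitm1. They are 13.3% of the 30, whereas 2.65% of all tested genes were called lower and 3.08% higher. An unadjusted p under 0.05 was found for 10 lower and 2 higher genes of the 30. Over all 9180 tested genes it was found for 915 lower and 949 higher genes. No rise among the 30 was called by DESeq2, limma-voom or the edgeR exact test either. Fitm1 passed the read filter through its wild type libraries alone, and without it 3 of 29 genes were lower. All 3 knockout values lay below all 3 wild type values for 8 of the 30 genes (26.7%, against 12.6% of all tested genes), and above them for 1 gene (3.33%, against 12.4%). Without Fitm1, they lay below for 7 of 29 genes.

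The fitted change was negative for 23 of the 30 genes (76.7%), compared with 49.2% of all tested genes. The median log2 fold change, knockout minus wild type, was -0.24 for the 30 genes and 0.01 for all tested genes. It was -0.57 for esterification, -0.31 for lipolysis, -0.14 for the droplet genes and -0.21 for uptake and binding. For the 8 hepatocyte markers the median was -0.32, with 7 of 8 negative, none called by edgeR and 4 lower at an unadjusted p under 0.05. Over all 9180 tested genes, 915 were lower at that cut-off. DESeq2, limma-voom and the edgeR exact test also called none of the 8. The part of this lower hepatocyte marker signal in the values of the storage genes was not tested.

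**Figure D1:**
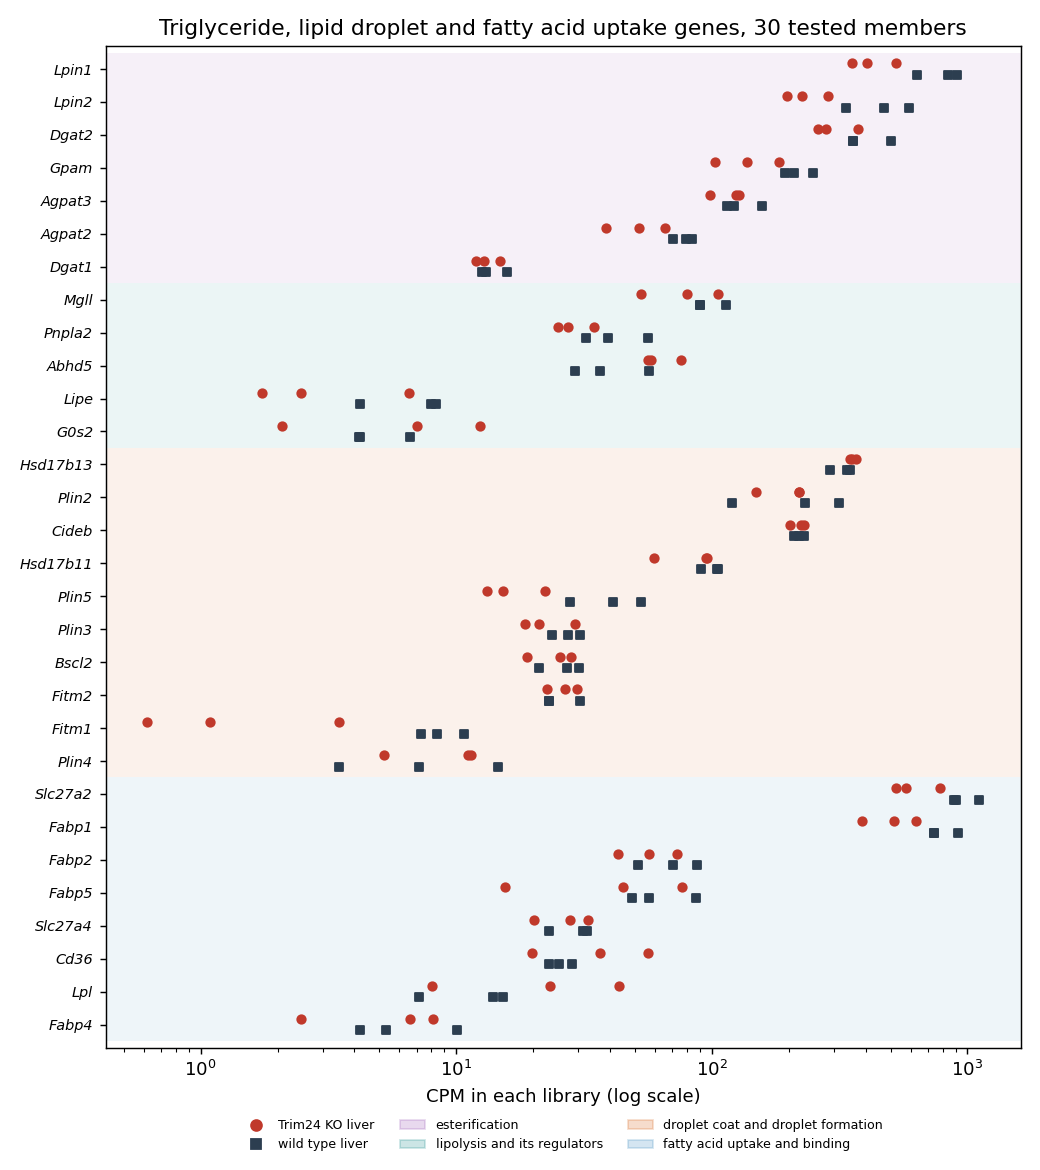
CPM of the 30 tested genes in each library on a log scale, with the 3 Trim24 KO libraries as red circles above the 3 wild type libraries as dark squares, and shading by role. The circles lie fully left of the squares for 8 genes, among them Lpin1, Lpin2, Plin5 and Fitm1, and fully right of them for Hsd17b13.

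Esterification was the role with the most negative median, and its 2 called genes were the phosphatidate phosphatases, of 7 tested. These enzymes, called lipins, remove the phosphate from phosphatidic acid to give diacylglycerol, the direct precursor of triglyceride. Lpin1 had 523, 405 and 352 CPM in knockout, against 634, 909 and 837 CPM in wild type. The groups did not overlap, and the highest knockout library stood at 523 CPM where the lowest wild type library stood at 634 CPM. The means were 427 ± 87.4 CPM in knockout and 793 ± 143 CPM in wild type (SD, n = 3 each), a 1.86-fold lower level (log2 fold change -0.90, SE 0.19, edgeR adjusted p = 0.014).

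Lpin2, a second lipin gene expressed in liver, had 284, 196 and 226 CPM in knockout, against 334, 588 and 471 CPM in wild type. Its groups also stayed apart, with WT1 the closest wild type library to the knockout. The means were 235 ± 44.7 CPM in knockout and 464 ± 127 CPM in wild type (SD, n = 3 each), a 1.97-fold lower level (log2 fold change -0.98, SE 0.21, edgeR adjusted p = 0.015). The Lpin1 call ended without KO2, KO3, WT2 or WT3 (edgeR adjusted p = 0.051 to 0.072) and the Lpin2 call without KO2, WT2 or WT3 (0.064 to 0.072), while the log2 fold changes stayed between -1.07 and -0.77 for Lpin1 and between -1.17 and -0.78 for Lpin2 whichever library was left out.

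Gpam, Agpat2 and Agpat3, the storage genes of the steps before the lipins, had negative fold changes that did not pass the threshold. Gpam encodes the mitochondrial acyltransferase that starts glycerolipid synthesis, and it had 137, 103 and 183 CPM in knockout and 210, 193 and 248 CPM in wild type (log2 fold change -0.62, SE 0.20, edgeR adjusted p = 0.091). Agpat2, an acyltransferase of the next step, had 52.0, 38.5 and 65.4 CPM in knockout and 83.8, 70.8 and 79.0 CPM in wild type (log2 fold change -0.57, SE 0.19, edgeR adjusted p = 0.11). In both genes the groups were apart but KO3 came close to the lowest wild type library. Both were called lower without KO3 (edgeR adjusted p = 0.026 for Gpam and 0.036 for Agpat2), and without KO2 their log2 fold changes were -0.43 for Gpam (0.27) and -0.39 for Agpat2 (0.31).

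The final step is made by the diacylglycerol acyltransferases Dgat1 and Dgat2, which are unrelated in sequence. Dgat2 averaged 305 ± 59.7 CPM in knockout and 405 ± 84.2 CPM in wild type (SD, n = 3 each), with overlapping groups (log2 fold change -0.41, 95% interval -0.82 to -0.01, edgeR adjusted p = 0.24). Dgat1 averaged 13.2 ± 1.49 CPM in knockout and 13.8 ± 1.78 CPM in wild type, with a 95% interval of -0.63 to 0.49 on the log2 scale. Per kilobase of exon, Dgat2 stood at 98.8 CPM in knockout and 131 CPM in wild type, far above Dgat1 at 4.33 CPM per kilobase in knockout and 4.53 in wild type. Agpat3, a relative of Agpat2, had overlapping groups at 117 ± 15.7 CPM in knockout and 131 ± 22.4 CPM in wild type (log2 fold change -0.17, edgeR adjusted p = 0.64). Mogat1, which feeds monoacylglycerol into the pathway, had no read in any of the 6 libraries.

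**Figure D2:**
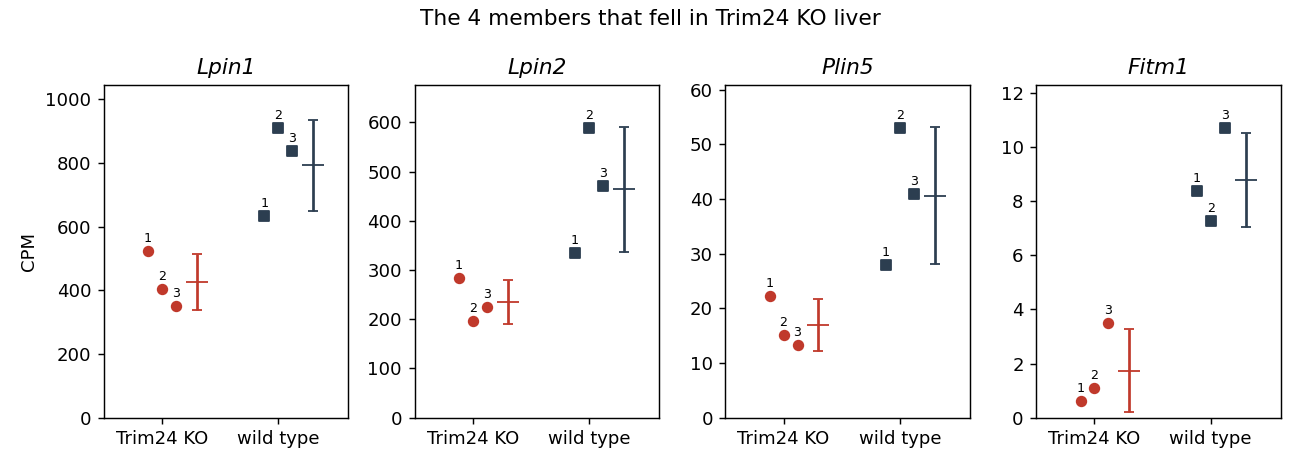
CPM of Lpin1, Lpin2, Plin5 and Fitm1 in each library, numbered by replicate, with the mean and SD of each group (n = 3) beside the points and every axis starting at 0. In all 4 panels the 3 Trim24 KO points on the left lie below the 3 wild type points on the right.

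Of the 4 tested perilipins, the proteins that coat droplets, Plin5 was the only one called. Plin5, a perilipin of tissues that burn fat, which tethers droplets to mitochondria and restrains lipolysis, had 22.3, 15.2 and 13.2 CPM in knockout, against 27.9, 52.9 and 41.0 CPM in wild type. All knockout libraries were below all wild type libraries, and KO1 and WT1 were the nearest pair. The means were 16.9 ± 4.77 CPM in knockout and 40.6 ± 12.5 CPM in wild type (SD, n = 3 each), a 2.46-fold lower level (log2 fold change -1.30, SE 0.27, edgeR adjusted p = 0.014). This call ended without KO2, KO3, WT2 or WT3 (edgeR adjusted p = 0.053 to 0.072), with log2 fold changes between -1.53 and -1.07 whichever library was left out.

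Plin2, the main perilipin of hepatocytes and a common marker of stored fat, did not pass the threshold. It had 219, 149 and 220 CPM in knockout and 232, 315 and 120 CPM in wild type, so the wild type libraries spanned the whole range of the knockout (log2 fold change -0.18, 95% interval -0.77 to 0.41, edgeR adjusted p = 0.77). Plin3 averaged 23.0 ± 5.55 CPM in knockout and 27.2 ± 3.34 CPM in wild type, and Plin4 9.25 ± 3.50 CPM in knockout and 8.39 ± 5.64 CPM in wild type (SD, n = 3 each), both with overlapping groups. Plin1, the perilipin of adipocytes, had 1 read in KO1 and none elsewhere. Per kilobase of exon, Plin2 led the family at 55.8 CPM in knockout and 63.3 CPM in wild type. Plin5 came next in both groups, at 8.10 CPM per kilobase in knockout, where it lay near Plin3 at 6.07, and at 19.5 CPM per kilobase in wild type, where Plin3 lay at 7.17.

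The FIT proteins act at the endoplasmic reticulum where droplets form, Fitm1 chiefly in muscle and Fitm2 widely. Fitm1 had 0.619, 1.09 and 3.48 CPM in knockout, from 1, 2 and 10 reads, against 8.38, 7.27 and 10.7 CPM in wild type, from 12, 11 and 18 reads. The groups did not overlap, but the level was low in all libraries and KO3 held most of the knockout reads. The means were 1.73 ± 1.53 CPM in knockout and 8.78 ± 1.74 CPM in wild type (SD, n = 3 each), a 4.30-fold lower level (log2 fold change -2.10, SE 0.50, edgeR adjusted p = 0.025). Its call ended without KO2, WT1, WT2 or WT3 (edgeR adjusted p = 0.072 to 0.14). Its log2 fold change was -3.24 without KO3 and between -2.24 and -1.80 without any other library. The 7 muscle markers summed to 1.24, 0 and 4.87 CPM in knockout and 43.3, 1.32 and 0 CPM in wild type, and Fitm1 in WT2 and WT3, with next to no muscle reads, stood at 7.27 and 10.7 CPM beside 8.38 CPM in WT1. Fitm1 shares 11.2% of its exon sequence with an antisense transcript. Fitm2 had 29.7, 26.6 and 22.6 CPM in knockout and 23.1, 30.4 and 23.2 CPM in wild type, with a 95% interval of -0.44 to 0.50 on the log2 scale.

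No other droplet gene passed the threshold. Hsd17b13, a hydroxysteroid dehydrogenase family enzyme that sits on hepatocyte droplets, was the only tested storage gene whose knockout values all lay above the wild type ones, at 368, 353 and 348 CPM in knockout and 338, 346 and 290 CPM in wild type. The gap was small and the gene was not called (log2 fold change 0.13, 95% interval -0.18 to 0.45, edgeR adjusted p = 0.67). Its relative Hsd17b11 averaged 83.4 ± 21.0 CPM in knockout and 100 ± 8.27 CPM in wild type, and the seipin gene Bscl2, which shapes the site of droplet budding, 24.2 ± 4.71 CPM in knockout and 26.2 ± 4.64 CPM in wild type (SD, n = 3 each). Cideb, the liver member of the CIDE family and a factor in lipoprotein lipidation, averaged 218 ± 14.7 CPM in knockout and 219 ± 10.6 CPM in wild type. Cideb shares 76.3% of its exon sequence with Nop9 on the opposite strand. Where the strand setting is not known, reads of the pair cannot be told apart, and some may have been left uncounted. Its relatives Cidea and Cidec, known from fat tissue and from fatty liver, were not tested. Cidea had 1 read in KO3 and none elsewhere, and Cidec had 3.10, 3.26 and 3.83 CPM in knockout and 0.699, 7.27 and 1.78 CPM in wild type. Of the 8 adipocyte markers, Lep and Retn had no read and Adipoq had 1, in KO3, and 2 were tested. Adrb3 was called higher, with 14, 32 and 21 reads in knockout and 2, 5 and 0 reads in wild type (edgeR adjusted p = 0.023). Car3 was called lower (edgeR adjusted p = 0.049), but not by DESeq2. The list's sum, 561 to 1604 CPM in knockout and 1795 to 2758 CPM in wild type, was nearly all Car3, which hepatocytes also express, and the part of these markers in the droplet gene values was not tested.

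For the 4 called genes, the sequence just upstream of each is shown. It was taken from RefSeq on GRCm38.p6 as the 250 bases before the most upstream annotated start, 5′ to 3′ along the gene. Capitals mark matches on either strand to AGGTCA, the hexamer bound by many nuclear receptors, to the E-box CACGTG, to CCAAT or to TATAAA. The windows are chr12:16610967-16611216 on the minus strand for Lpin1, chr17:71183282-71183531 on the plus strand for Lpin2, chr17:56117549-56117798 on the minus strand for Plin5 and chr14:55575424-55575673 on the plus strand for Fitm1.
Lpin1: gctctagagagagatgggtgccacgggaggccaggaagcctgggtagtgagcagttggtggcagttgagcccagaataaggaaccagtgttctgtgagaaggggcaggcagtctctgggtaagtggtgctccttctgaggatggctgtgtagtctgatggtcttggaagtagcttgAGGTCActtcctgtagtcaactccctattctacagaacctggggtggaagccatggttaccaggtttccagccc
Lpin2: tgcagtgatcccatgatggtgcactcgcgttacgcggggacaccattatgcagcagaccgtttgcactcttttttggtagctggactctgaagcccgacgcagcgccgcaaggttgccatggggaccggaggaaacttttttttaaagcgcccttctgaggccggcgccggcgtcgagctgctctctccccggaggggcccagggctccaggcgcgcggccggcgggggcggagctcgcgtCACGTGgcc
Plin5: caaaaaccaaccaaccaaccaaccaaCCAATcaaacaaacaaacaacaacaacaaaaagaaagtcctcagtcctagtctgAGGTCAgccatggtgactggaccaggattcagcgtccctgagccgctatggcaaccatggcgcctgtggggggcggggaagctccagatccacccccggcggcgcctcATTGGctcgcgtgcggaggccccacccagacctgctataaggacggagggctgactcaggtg
Fitm1: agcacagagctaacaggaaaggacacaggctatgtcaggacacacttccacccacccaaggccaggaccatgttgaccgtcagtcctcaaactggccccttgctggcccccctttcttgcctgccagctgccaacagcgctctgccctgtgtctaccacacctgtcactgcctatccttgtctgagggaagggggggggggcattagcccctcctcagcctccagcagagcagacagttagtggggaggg

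AGGTCA stood 74 bases before the start of Lpin1 and 170 bases before that of Plin5. Lpin2 held an E-box 9 bases before its start, Plin5 held CCAAT 224 and 62 bases before its start, the nearer of these on the reverse strand, and none of the 4 motifs was in the Fitm1 window. No match overlapped another. Of the 38 genes, 32 had entries in the promoter table, with 45 windows in all. Of the 45 windows, AGGTCA was in 10, CACGTG in 4, CCAAT in 14 and TATAAA in 2. Over all 32851 windows of the table AGGTCA was in 14.0%, CACGTG in 6.02%, CCAAT in 33.8% and TATAAA in 12.4%. A match describes the sequence and is not evidence of binding.

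Lipolysis genes gave no call in either direction, and DESeq2, limma-voom and the edgeR exact test called none. At an unadjusted p under 0.05, 1 of 5 was lower and 1 higher, against 915 lower and 949 higher of all 9180 tested genes. Pnpla2 encodes adipose triglyceride lipase, which makes the first cut, and it had 34.7, 25.0 and 27.5 CPM in knockout and 32.1, 56.2 and 39.2 CPM in wild type (log2 fold change -0.56, SE 0.23, edgeR adjusted p = 0.19). KO1 lay above WT1, so the groups overlapped. Its coactivator Abhd5 had a positive fold change, with 57.6, 56.4 and 75.5 CPM in knockout and 56.6, 36.4 and 29.1 CPM in wild type (log2 fold change 0.66, SE 0.23, edgeR adjusted p = 0.12). WT1 was the wild type library that met the knockout range, and without WT1 Abhd5 was called higher (edgeR adjusted p = 0.041). The log2 fold change was 0.49 without KO3 (0.31) and 0.45 without WT3 (0.40). Abhd5 shares 16.0% of its exon sequence with an antisense transcript.

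The other lipases and inhibitors were low or spread widely. Mgll, the lipase that finishes the breakdown to glycerol, averaged 79.4 ± 26.6 CPM in knockout and 97.8 ± 13.5 CPM in wild type (SD, n = 3 each, edgeR adjusted p = 0.47). Lipe, hormone-sensitive lipase, which shares 15.6% of its exon sequence with an antisense transcript, averaged 3.58 ± 2.57 CPM in knockout and 6.81 ± 2.28 CPM in wild type, and its 95% interval ran from -2.10 to 0.08 on the log2 scale. G0s2, an inhibitor of adipose triglyceride lipase, had 12.4, 7.06 and 2.09 CPM in knockout and 4.19, 6.61 and 4.16 CPM in wild type, so the knockout libraries lay on both sides of wild type. Hilpda, another inhibitor of that lipase, and Pnpla3, a droplet protein whose human variant is linked to fatty liver, were below the filter. Hilpda had 3, 2 and 10 reads in knockout and 2, 2 and 1 reads in wild type. Pnpla3 had 2, 3 and 6 reads in knockout and 0, 2 and 3 reads in wild type, and the groups overlapped for both genes.

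**Figure D3:**
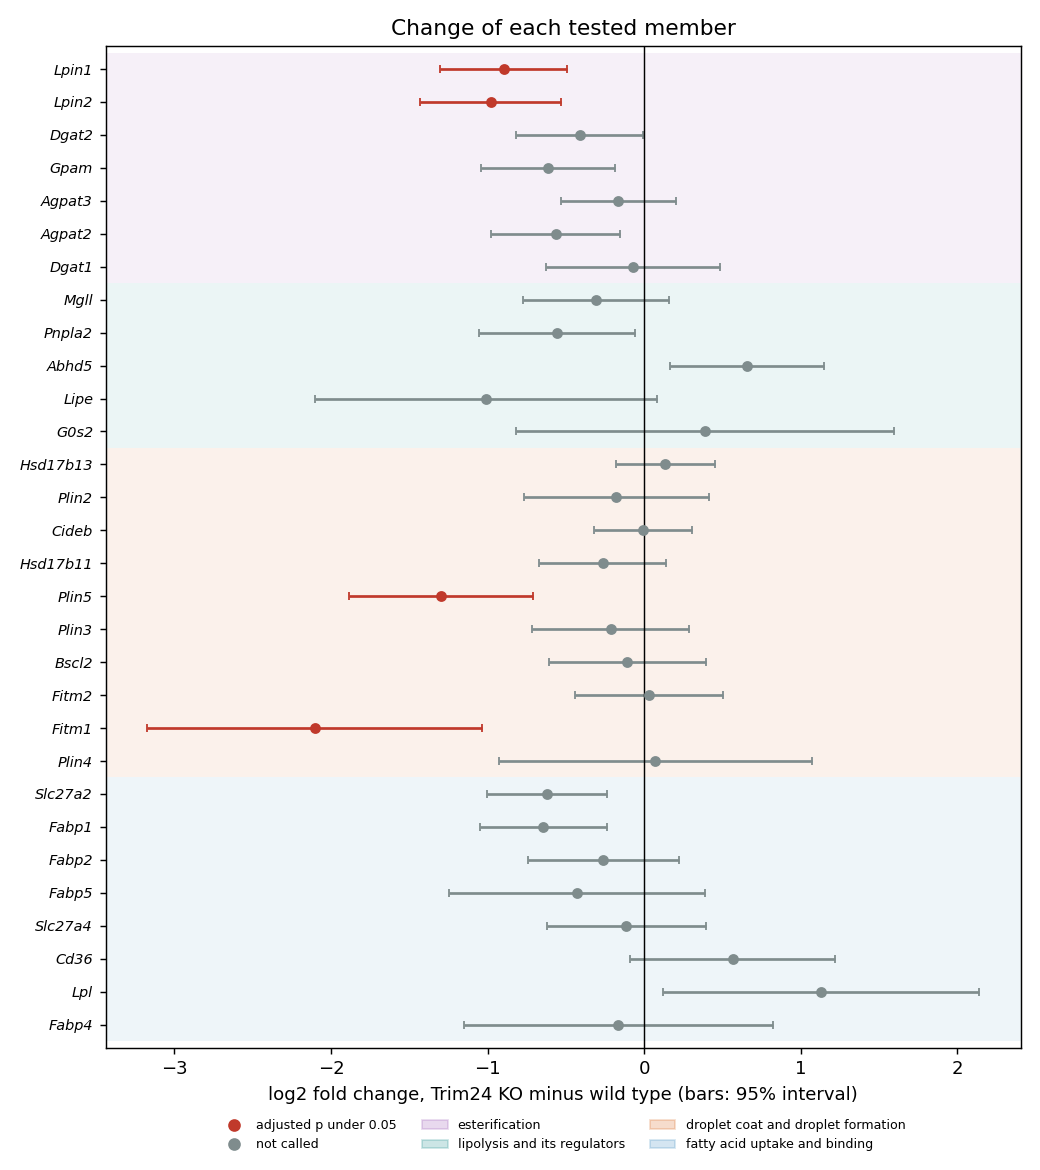
Log2 fold change of each of the 30 tested genes, Trim24 KO minus wild type, as points with 95% intervals and shading by role. The 4 genes in red, Lpin1, Lpin2, Plin5 and Fitm1, had an adjusted p under 0.05, and all 7 esterification genes lie left of 0.

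None of the 8 tested uptake and binding genes was called by edgeR, and 2 lower and 1 higher had an unadjusted p under 0.05. That cut-off was met by 915 lower and 949 higher genes of all 9180 tested. Slc27a2, a very long chain acyl-CoA synthetase and transporter of hepatocytes, had 781, 525 and 577 CPM in knockout and 902, 1108 and 887 CPM in wild type (log2 fold change -0.62, SE 0.18, edgeR adjusted p = 0.058). Fabp1, the liver fatty acid binding protein gene, had 517, 385 and 631 CPM in knockout and 921, 739 and 739 CPM in wild type (log2 fold change -0.64, SE 0.19, edgeR adjusted p = 0.063). In both genes every knockout library was below every wild type library. DESeq2 called both lower (adjusted p = 0.022 for Slc27a2 and 0.026 for Fabp1), as did the edgeR exact test, and limma-voom called neither. Slc27a2 shares 11.2% of its exon sequence with a noncoding transcript on the opposite strand. It was called lower without KO1 (edgeR adjusted p = 0.013) and Fabp1 without KO3 (0.034). Without KO2 the log2 fold changes were -0.50 for Slc27a2 and -0.47 for Fabp1 (edgeR adjusted p = 0.19 for each). Per kilobase of exon, Fabp1 was the most abundant of the 38 genes, at 924 CPM in knockout and 1446 CPM in wild type.

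Lpl and Cd36 had positive fold changes that did not pass the threshold, with a wide spread in knockout. Lpl, the lipoprotein lipase that frees fatty acids from circulating lipoproteins, is low in adult hepatocytes and present in macrophages. It had 8.05, 23.3 and 43.5 CPM in knockout and 14.0, 15.2 and 7.13 CPM in wild type (log2 fold change 1.13, SE 0.47, edgeR adjusted p = 0.19). Cd36, a fatty acid receptor of many cell types, had 19.8, 56.4 and 36.5 CPM in knockout and 25.1, 28.4 and 23.2 CPM in wild type (log2 fold change 0.56, SE 0.30, edgeR adjusted p = 0.32). KO2 and KO3 were above every wild type library for both genes, while KO1 was inside the wild type range for Lpl and below it for Cd36. Without KO1 both were called higher (edgeR adjusted p = 0.016 for Lpl and 0.049 for Cd36). The Lpl log2 fold change was 0.41 without KO3 (edgeR adjusted p = 0.67), and that of Cd36 was 0.19 without KO2 (0.79).

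The 12 Kupffer cell and macrophage markers summed to 289, 529 and 543 CPM in knockout and to 169, 314 and 256 CPM in wild type, so KO1 was inside the wild type range for the sum. Of the 11 tested markers, C1qc, Mpeg1 and Ctss rose, with KO1 above every wild type library for each of the 3, all 11 changes were positive, and none of the 12 was at 0 in every library. Their part in the levels of Lpl and Cd36 was not tested. The 12 liver endothelial markers summed to 441 to 583 CPM in knockout and 560 to 590 CPM in wild type. Among them Tek was called higher (edgeR adjusted p = 9.5e-05), and Stab2 and Ehd3 were called lower (0.017 each). Of all tested genes, 3.08% were called higher and 2.65% lower.

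The other carriers overlapped between the genotypes. Fabp5, the epidermal type binding protein gene, had 15.5, 45.0 and 76.2 CPM in knockout and 86.6, 56.9 and 48.7 CPM in wild type, a range in knockout that enclosed most of the wild type values. Fabp2, the intestinal type, averaged 57.6 ± 15.1 CPM in knockout and 69.9 ± 17.9 CPM in wild type (SD, n = 3 each). The enterocyte markers Sis, Lct and Alpi had at most 2 reads in any library, Vil1 had 0 to 6 and Apoa4 had 700 to 1828. The sum of this list was 450 to 772 CPM in knockout and 464 to 525 CPM in wild type. It was nearly all Apoa4, which is also on the list of lipoprotein assembly genes. The part of these markers in the Fabp2 values was not tested. Fabp4, the binding protein gene of adipocytes, macrophages and endothelium, averaged 5.74 ± 2.93 CPM in knockout and 6.53 ± 3.14 CPM in wild type. Slc27a4 averaged 26.9 ± 6.42 CPM in knockout and 29.0 ± 5.15 CPM in wild type, and Slc27a1, below the filter, had 1.86 to 2.44 CPM in knockout and 2.38 to 2.79 CPM in wild type. Among the storage genes only, the Slc27a transporters kept the order Slc27a2, Slc27a4 and Slc27a1 per kilobase of exon in both genotypes. They stood at 167, 6.10 and 0.369 CPM in knockout and 257, 6.57 and 0.446 CPM in wild type.

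Vldlr, the receptor for very low density lipoprotein, was below the filter and therefore not tested with the others. It had 2, 4 and 5 reads in knockout and 11, 9 and 8 reads in wild type, or 1.24, 2.17 and 1.74 CPM in knockout and 7.68, 5.95 and 4.75 CPM in wild type. The groups did not overlap, and every knockout value rested on 5 reads or fewer. With no filter it was called lower (edgeR adjusted p = 0.037), but not when genes needed 1 CPM or more in 3 of the libraries (0.057).

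The knockout libraries did not contribute equally. Relative to the wild type mean, the 30 genes had a median log2 difference of -0.25, -0.46 and -0.12 in knockout, and -0.10, 0.16 and 0.01 in wild type. For the esterification genes the median was -0.57, -0.95 and -0.24 in knockout. KO2 was the lowest of the knockout libraries for 16 of the 30 genes (53.3%), compared with 32.3% of all tested genes. KO2 was also the knockout library with the lowest hepatocyte marker sum, 85272 CPM, and the one whose pancreatic marker sum, 13.0 CPM, lay in the wild type range. With KO2 as the only knockout library, 8 of 32 tested storage genes were called lower, against 2.65% of the 10116 genes in that fit, with Fitm1 not among them (edgeR adjusted p = 0.051). Cd36 was called higher (0.016), against 2.98% of those genes. That fit assumes that the lone library varies like the wild type libraries. It also keeps the knockout library that was the lowest for 16 of the 30 genes, which favours lower calls among them. Its count of lower storage genes therefore cannot be separated from the choice of library, and no conclusion is drawn from it.

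**Figure D4:**
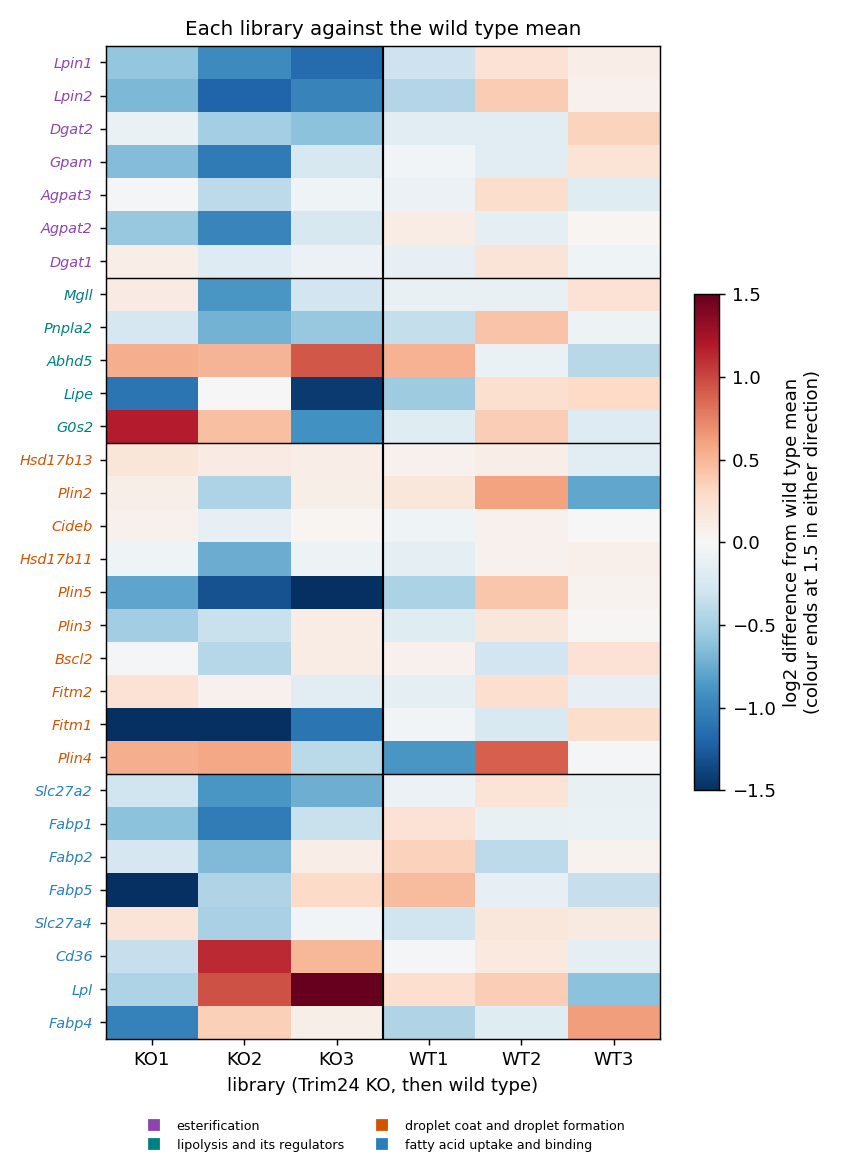
Log2 difference of each tested gene in each library from the wild type mean, with Trim24 KO libraries left of the line and wild type libraries right of it, blue for lower and red for higher. Lpin1, Lpin2, Plin5 and Fitm1 are blue in all 3 knockout columns, while Lpl and Cd36 are red in KO2 and KO3 but not in KO1.

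Genes around these in the pathway were read in the same way. Of 61 listed acyltransferases, acyl-CoA synthetases, carriers, lipases, lipoprotein assembly genes and regulators, 59 were in the files and 45 were tested. Of these 45, 8 fell and 1 rose, with a median log2 fold change of -0.23. Over all tested genes 2.65% were called lower and 3.08% higher, with a median of 0.01. Among lipases, 3 of 10 fell. Ces1d, a carboxylesterase known as triacylglycerol hydrolase that mobilises stored triglyceride for secretion, had 150, 56.4 and 80.4 CPM in knockout, against 270, 255 and 257 CPM in wild type (log2 fold change -1.46, SE 0.26, edgeR adjusted p = 0.0059). The wild type libraries were close together and all knockout libraries lay well below them, and the call held with each library left out. Its relative Ces1g averaged 87.1 ± 26.5 CPM in knockout and 145 ± 10.8 CPM in wild type (edgeR adjusted p = 0.043), and hepatic lipase, Lipc, 104 ± 2.90 CPM in knockout and 181 ± 22.7 CPM in wild type (SD, n = 3 each, edgeR adjusted p = 0.0081). The Lipc call held without each library in turn but ended in 1 of the 16 alternatives. That of Ces1g ended without any library but KO1 (edgeR adjusted p up to 0.15).

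Of 6 tested acyl-CoA synthetases, 1 rose and 1 fell. Acsl3, which resides on nascent droplets, had 39.0, 61.9 and 47.3 CPM in knockout, against 31.4, 25.1 and 26.7 CPM in wild type (log2 fold change 0.83, SE 0.21, edgeR adjusted p = 0.036). Acsm3, a medium chain synthetase of mitochondria, averaged 141 ± 13.6 CPM in knockout and 235 ± 6.38 CPM in wild type (SD, n = 3 each, edgeR adjusted p = 0.010). The Acsm3 call held without each library in turn, and that of Acsl3 ended without any library but KO1 (edgeR adjusted p up to 0.14).

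Of the other acyltransferases, Lpcat3, which remodels phosphatidylcholine, and Soat2, which makes cholesteryl ester, were the 2 of 6 that fell, while 3 of the 6 fold changes were positive and the median was 0.10 on the log2 scale. Lpcat3 averaged 113 ± 3.71 CPM in knockout and 166 ± 5.53 CPM in wild type (edgeR adjusted p = 0.037), and Soat2 15.1 ± 4.60 CPM in knockout and 31.8 ± 1.36 CPM in wild type (SD, n = 3 each, edgeR adjusted p = 0.025). Lpcat3 was called without KO1 only among the fits with a library left out, and Soat2 without KO1 or KO3 (edgeR adjusted p up to 0.12 and 0.086). Agpat1, an isoenzyme of Agpat2, had 14.9, 16.8 and 13.9 CPM in knockout and 7.68, 5.95 and 9.50 CPM in wild type (log2 fold change 0.96, SE 0.29, edgeR adjusted p = 0.075). Its groups did not overlap, and the edgeR exact test called it higher. Agpat5 also had every knockout library above wild type (log2 fold change 0.38, edgeR adjusted p = 0.46), and both were singled out after their values were seen. None of 6 tested carriers was called by edgeR or limma-voom, and 1 was called lower by DESeq2 and by the edgeR exact test. At an unadjusted p under 0.05, 1 of the 6 was lower, against 915 of all 9180 tested genes. None of 6 tested lipoprotein assembly genes was called by edgeR, DESeq2, limma-voom or the edgeR exact test, and none of them had an unadjusted p under 0.05.

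Regulators of storage genes included 2 that fell among 11 tested. Insig2, which retains the SREBP precursors in the endoplasmic reticulum, had 103, 169 and 164 CPM in knockout, against 263, 439 and 237 CPM in wild type (log2 fold change -1.10, SE 0.24, edgeR adjusted p = 0.017). The transcription factor gene Cebpa averaged 114 ± 12.6 CPM in knockout and 170 ± 15.9 CPM in wild type (SD, n = 3 each, edgeR adjusted p = 0.044). Of the 16 alternatives, the Insig2 call ended in 2, 1 of them without WT2 (edgeR adjusted p = 0.077). The Cebpa call ended in 7, among them the fits without any library but KO1 (up to 0.17). Ppara, which drives many fat burning and droplet genes in liver and was singled out after its values were seen, averaged 214 ± 90.3 CPM in knockout and 269 ± 61.0 CPM in wild type (SD, n = 3 each) with overlapping groups (edgeR adjusted p = 0.51).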

How the data were processed

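Liver RNA of 3 Trim24 -/- and 3 wild type samples was sequenced on an Illumina HiSeq, per the labels. The deposited files hold raw counts of reads per gene, 1 file per sample, for 23284 genes and 5 counter totals that entered neither library sizes nor tests; 93.3% to 95.8% of counted reads were in no gene. Per the submitters' processing notes, TopHat 1.4.1, HTSeq, edgeR and mm9 were used. Annotation and strand setting are not given in the sources used here. Reads over antisense and overlapping genes may therefore be counted for the other gene or left out as ambiguous.

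From the deposited counts, genes were filtered with filterByExpr (minimum count 10), scaled by TMM and tested with edgeR's quasi-likelihood test (edgeR 4.0.16, limma 3.58.1, R 4.3.3) on the 3 Trim24 -/- and 3 wild type libraries. P-values were adjusted by Benjamini-Hochberg over 9180 genes, with calls at an adjusted p under 0.05. CPM uses reads in tested genes. Standard errors and 95% intervals come from the same fit. Levels per kilobase divide CPM by the union of GENCODE M21 exons, and no mm9 coordinates were used. Upstream sequence came from RefSeq. Alternatives were other scaling factors, filters and thresholds, DESeq2 1.42.0, limma-voom, the edgeR exact test, a replicate block, each library left out and KO2 as the only knockout library. The scripts were tested on simulated data.

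The 38 genes, the other lists, the tests and the alternatives were chosen with earlier results of these data known. The rule for naming genes gave library values for called genes and genes whose groups do not overlap, and up to 4 called genes per wider list; other storage genes given by library were singled out after their values were seen.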

Additional observations from a re-analysis of the deposited data

How the results depend on the processing

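The 9 storage genes that were called or did not overlap and the 9 called wider genes gave 288 values under 16 alternatives, of which none changed direction, 47 lost a call and 21 gained one. Of all 30 tested storage genes, 21 kept their direction throughout. The other 9 (Dgat1, G0s2, Plin2, Plin4, Cideb, Fitm2, Bscl2, Fabp4 and Slc27a4) had the other direction in 20 values, none of them called, such as 0.16 for Plin2 without WT2, -0.25 for G0s2 without KO1, and 0.01 for Cideb with upper-quartile scaling. Against 4 storage genes called lower and 0 higher, no filter gave 9 lower and 2 higher, an adjusted p under 0.1 gave 7 lower, and KO2 as the only knockout library gave 8 lower and 1 higher. Leaving out 1 library gave 0 to 5 lower, with 0 without KO2, WT2 or WT3, and 0 to 2 higher. Of esterification genes 4 were lower with no filter, 4 with KO2 alone and 0 to 3 with a library left out. Of lipolysis genes 1 was higher with no filter, 0 to 1 were higher with a library left out, and 1 was lower with KO2 alone. Of droplet genes 1 was lower with KO2 alone and 0 to 2 with a library left out. Of uptake genes 1 was higher with no filter, 1 with KO2 alone and 0 to 2 with a library left out, while 2 were lower under DESeq2, 2 under the edgeR exact test, 3 with no filter, 2 at an adjusted p under 0.1, 2 with KO2 alone and 0 to 1 with a library left out. Over all genes 526 were called, against 1085 with no filter, 882 at an adjusted p under 0.1 and 222 to 772 with a library left out. A looser threshold can only add calls. The cause of the other changes was not tested. The counts with KO2 alone rest on 1 knockout library, which was the lowest of the knockout libraries for 16 of the 30 storage genes.

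Deviations of same-numbered libraries had correlations of -0.073, 0.079 and 0.035, within the range of the other pairs (-0.12 to 0.089). With 3 libraries per genotype, these values cannot show whether the numbers pair the libraries. With the number as a replicate block, 6 storage genes were lower, 1 of them an uptake gene, and 545 genes were called over all. Genes under about 3 reads per library, such as Plin1 and Cidea, could not be compared at this depth.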
